A study of Mus musculus with 8 samples.

Results

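The subject is 10 genes whose products are secreted by fat: Lep, Adipoq, Retn, Nrg4, Bmp8b, Metrnl, Vegfa, Apln, Rbp4 and Nampt. They were chosen by name, as adipokines and brown fat secreted factors, and all 10 were found among the 44674 genes of the table. Their RNA levels were compared in brown adipose tissue (BAT) of 4 control mice (labelled CTRL) and 4 Ox1RΔSERT mice (labelled Sert-Ox1R), with 1 library per mouse. Ox1RΔSERT mice carry floxed alleles of the orexin receptor Ox1R (Ox1R fl/fl) and Sert-Cre, a Cre driven by the gene of the serotonin transporter. The controls were littermates with the same floxed alleles and no Cre, so that effects of the Cre transgene and of the deletion cannot be told apart. In reporter mice the study also saw Sert-Cre activity in cingulate cortex and thalamic nuclei, and found no Ox1R in the labelled cells there. All mice were males on a C57BL/6N background, received a high-fat diet from week 4 to week 18, and gave their BAT at the end of a hyperinsulinemic-euglycemic clamp, in which insulin is infused and glucose is supplied to keep its blood level constant. The comparison asks whether the endocrine output of brown fat, read as RNA, differs when the receptor is lost elsewhere in the body.

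The depth was 39522372, 35852667, 48106049 and 50020769 estimated counts in control mice 10684, 11253, 11560 and 11563. In Ox1RΔSERT mice 11243, 11601, 11613 and 11708 it was 50063257, 42606778, 41562461 and 42512573. Wherever 4 values of a group follow without mouse numbers, they are in this order. A normalized value is CPM (the count relative to a library of 1e+06 counts) after edgeR's TMM scaling, which allows mice to be compared for 1 gene. TPM, which is corrected for transcript length, was used to compare levels between genes. A floor of 3 counts was a normalized value of 0.0592 to 0.0951, for counting error only.

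Fat cells are endocrine cells: leptin and adiponectin report energy stores and insulin sensitivity, and resistin and retinol-binding protein have been tied to insulin resistance. Brown adipocytes burn fuel for heat and release a partly different set of factors, which act on blood vessels, on nerve endings in the tissue, on the liver and on brown adipocytes themselves. RNA levels show what a tissue could make, not how much protein it releases.

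Markers of BAT were abundant in every mouse. The 6 brown adipocyte markers summed to TPM of 8344, 8009, 8949 and 8469 in control mice and 7999, 7619, 8793 and 6827 in Ox1RΔSERT mice, with Cox8b as the most abundant gene. The 5 markers of adipocytes in general summed to TPM of 10329, 9118, 8479 and 8547 against 8439, 9968, 10910 and 8595, led by Fabp4. Ox1RΔSERT mice 11601 and 11708 stood apart from the other 6 mice by markers of other cells. The 12 leukocyte markers, led by Lyz2, summed to TPM of 119, 138, 73 and 88.2 in control mice and 106, 759, 150 and 568 in Ox1RΔSERT mice. The 6 markers of fibroblasts and preadipocytes, led by Col3a1, summed to 94.2, 200, 121 and 130 against 152, 1554, 251 and 674. Mouse 11708 also had the highest sum for liver markers (471, led by Alb, against 1.09 to 33.6 in the other mice) and for skeletal muscle markers (1033, led by Acta1). The deleted gene itself, Hcrtr1, had 0 to 5 counts per mouse in BAT, and the transporter gene Slc6a4 had 6 to 21, so the deletion cannot be seen in this tissue.

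No difference between the groups was called for any of the 10 genes by edgeR, and 1 gene, Bmp8b, was set apart by several other measures. Bmp8b was lower in Ox1RΔSERT mice, at a mean normalized value of 2 ± 0.821 against 5.55 ± 1.99 (SD, n = 4 each). Lep, Metrnl and Apln had higher means in Ox1RΔSERT mice, mainly in mice 11601 and 11708 for Metrnl and in mouse 11601 for Apln. Adipoq, Nrg4, Vegfa and Nampt had slightly lower means on the normalized scale and higher means on the TPM scale, and Retn and Rbp4 differed by less than the spread between mice. All 10 genes had enough counts to be tested. At an adjusted p under 0.05, edgeR's quasi-likelihood test called 0 of the 10 genes, as it called 0% of all 14489 genes tested, and the lowest adjusted p of any gene was 0.316. DESeq2 called 1 of the 10, Bmp8b, against 1.75% of the genes it gave an adjusted p. At an unadjusted p under 0.05 in edgeR's test, 1 of the 10 differed, against 15.2% of all genes, with 0 of the 10 higher against 10.2% and 1 lower against 4.96%. The groups did not overlap for 1 of the 10, against 5.50% of all genes, with 0 higher against 2.69% and 1 lower against 2.81%. Counts of 0 or 1 among 10 genes do not set the list apart from this background. Bmp8b passed the unadjusted threshold with every setting and every left-out mouse tried. Other genes joined it without control mouse 10684 (2 of the 10, with Lep) or 11563 (2, with Apln), and without Ox1RΔSERT mouse 11243 (2, with Metrnl) or 11613 (4, with Adipoq, Nrg4 and Metrnl). Of all genes, 2326 of 14824 passed without 10684, 1348 of 14829 without 11563, 3331 of 14843 without 11243 and 2819 of 14788 without 11613. Metrnl also joined it in DESeq2, by library size alone and with no filter (2 each), and Lep and Apln on log2(TPM + 0.1) (3 in all). There, 2578 genes passed in DESeq2, 3100 of 14489 by library size, 2752 of 24567 with no filter and 3200 of 14489 on log2(TPM + 0.1). The median log2 fold change, Ox1RΔSERT over control, was -0.04 for the 10 genes and 0.00 for all genes tested, with 5 of the 10 above 0 and 5 below. In whole tissue, fewer cells of a type and less RNA per cell cannot be told apart.

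**Figure D1:**
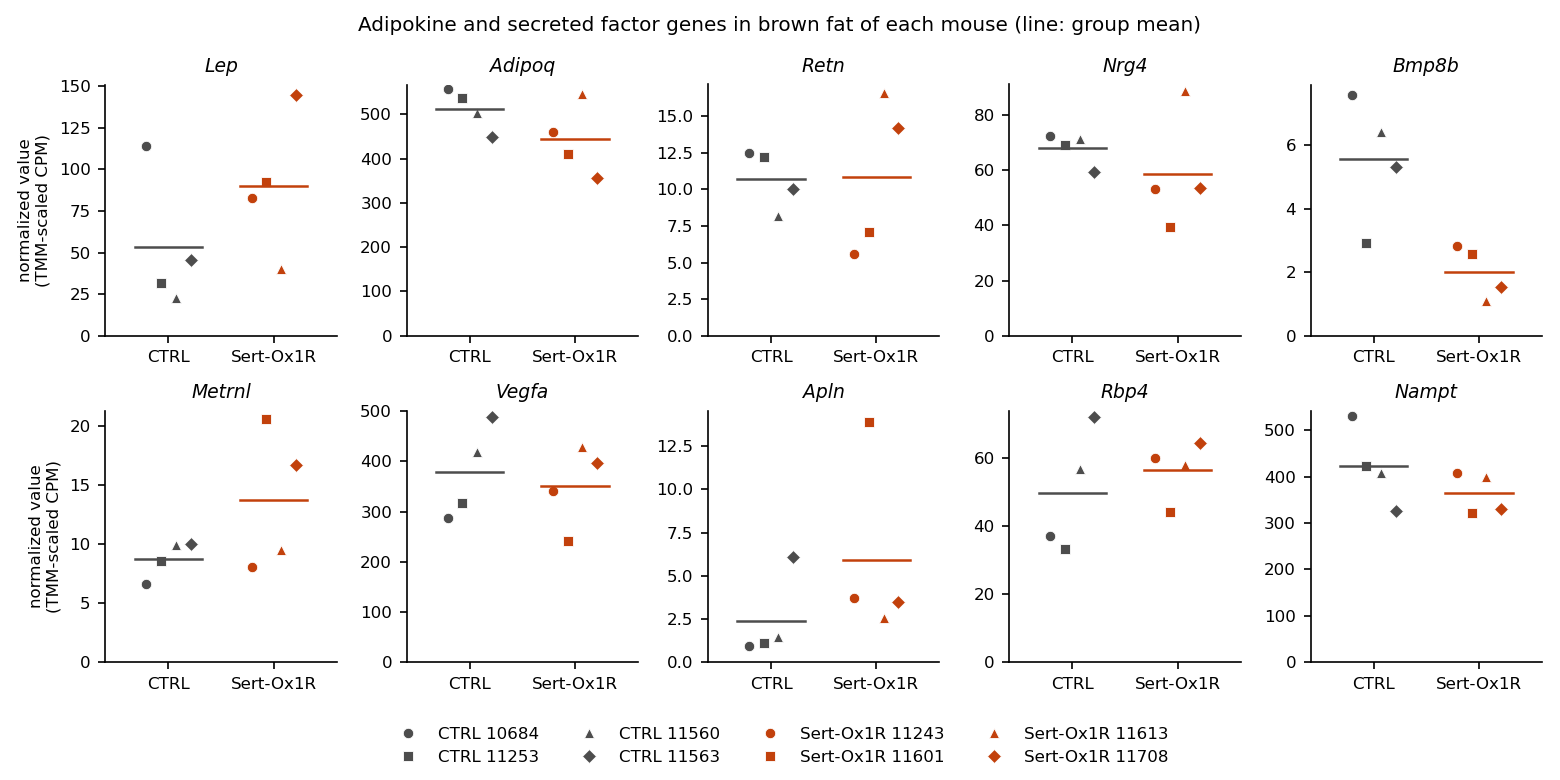
Normalized value (CPM after TMM scaling, axes from 0) of the 10 genes in each of the 4 control mice and 4 Ox1RΔSERT mice, with a symbol for each mouse and a line at each group's mean. Bmp8b is the gene whose groups do not overlap, by the gap between 2.92 in control mouse 11253 and 2.82 in Ox1RΔSERT mouse 11243, and Apln is the most spread, from 0.915 to 13.9.

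The levels of the 10 genes spanned a wide range. By mean TPM over the 8 mice, Adipoq was the most abundant at 340, place 183 among all genes. Vegfa followed at 197, Nampt at 91.6, Rbp4 at 57 and Nrg4 at 48.1. Lep stood at 20, Retn at 12.9 and Metrnl at 9.58. Apln, at 1.44, and Bmp8b, at 1.19, were the lowest. Adipoq stood apart from Vegfa, with 288 in its lowest mouse against 277 in the highest of Vegfa, and Vegfa from Nampt, with 141 against 117. From Nampt down, the ranges of neighbours in this order overlapped. Within each mouse, Nampt lay above Rbp4, Nrg4 above Lep and Metrnl above Apln in 8 of 8 mice, and Retn above Metrnl in 7. Rbp4 lay above Nrg4 in 5 mice, Lep above Retn in 4 and Apln above Bmp8b in 5, so the order of these pairs is not firm. Mice of a group also varied unequally. The coefficient of variation of normalized values was 103% in control mice and 90.1% in Ox1RΔSERT mice for Apln, and 77.3% and 47.5% for Lep, against medians of 14.9% and 17.4% over all genes tested. Adipoq was steadier, at 9.21% and 18.2%. For Nrg4 it was 8.74% in control mice and 35.7% in Ox1RΔSERT mice.

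Bmp8b (ENSMUSG00000002384, chromosome 4 of GRCm38, 123105165 to 123132099) encodes bone morphogenetic protein 8b, a secreted factor of brown adipocytes that is known to raise their response to sympathetic nerves. Its normalized values were 7.58, 2.92, 6.41 and 5.3 in the controls and 2.82, 2.56, 1.1 and 1.52 in Ox1RΔSERT mice, from 49 to 290 counts per mouse. All 4 Ox1RΔSERT mice lay below all 4 control mice, but control mouse 11253 and Ox1RΔSERT mouse 11243 were nearly equal. The mean of Ox1RΔSERT mice was 0.36 times that of control mice, for a log2 fold change of -1.47 (SE, standard error, 0.37), larger than the spread within either group. The exact two-sided permutation p was 0.0286, the smallest that the 70 assignments of 4 mice against 4 can give. In edgeR's quasi-likelihood test its p took place 81 of 14489, with an adjusted p of 0.316, whereas DESeq2 gave an adjusted p of 0.0184 for a log2 fold change of -1.48. Over all settings, each left-out mouse and both mice 11601 and 11708 left out, the adjusted p lay between 0.00116 and 0.996. The highest was without both of these mice in edgeR. The log2 fold change was below 0 in each of these fits. The DESeq2 call was lost without control mouse 10684 (adjusted p 0.0529), 11560 (0.184) or 11563 (0.0964). It was also lost without Ox1RΔSERT mouse 11601 (0.0719) or 11708 (0.165). In these fits the log2 fold change lay between -1.62 and -1.29, about as large as with all mice. The unadjusted DESeq2 p of Bmp8b lay between 7.29e-05 and 0.00151 in them, against 7.84e-05 with all mice. Of all genes, DESeq2 called 373 without mouse 10684, 17 without 11560 and 49 without 11563. It called 17 without 11601 and 19 without 11708, against 265 with all mice.

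The gap between the groups depended on the scale. As CPM of the whole library, Bmp8b stood at 7.34, 2.57, 5.9 and 5.04 in control mice and 2.58, 3.05, 1.18 and 1.74 in Ox1RΔSERT mice. As TPM it stood at 2.35, 0.759, 1.86 and 1.63 against 0.791, 1.11, 0.395 and 0.651. On both scales Ox1RΔSERT mice 11243 and 11601 lay above control mouse 11253, and the other 2 lay below all control mice. Mitochondrially encoded genes took 40.0%, 46.8%, 42.7% and 42.1% of the counts in control mice and 44.6%, 33.6%, 34.0% and 36.2% in Ox1RΔSERT mice. Scaling by library size alone moved the median log2 fold change of all genes by 0.22, log2(TPM + 1) moved it by 0.23 and log2(TPM + 0.1) by 0.32. Relative to these shifts, the log2 fold change of Bmp8b was -1.50, -0.82 and -1.36. Without mice 11601 and 11708 it was -1.50, as large as with them, while DESeq2's adjusted p was then 0.473. In that fit DESeq2 called 8 of all genes.

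**Figure D2:**
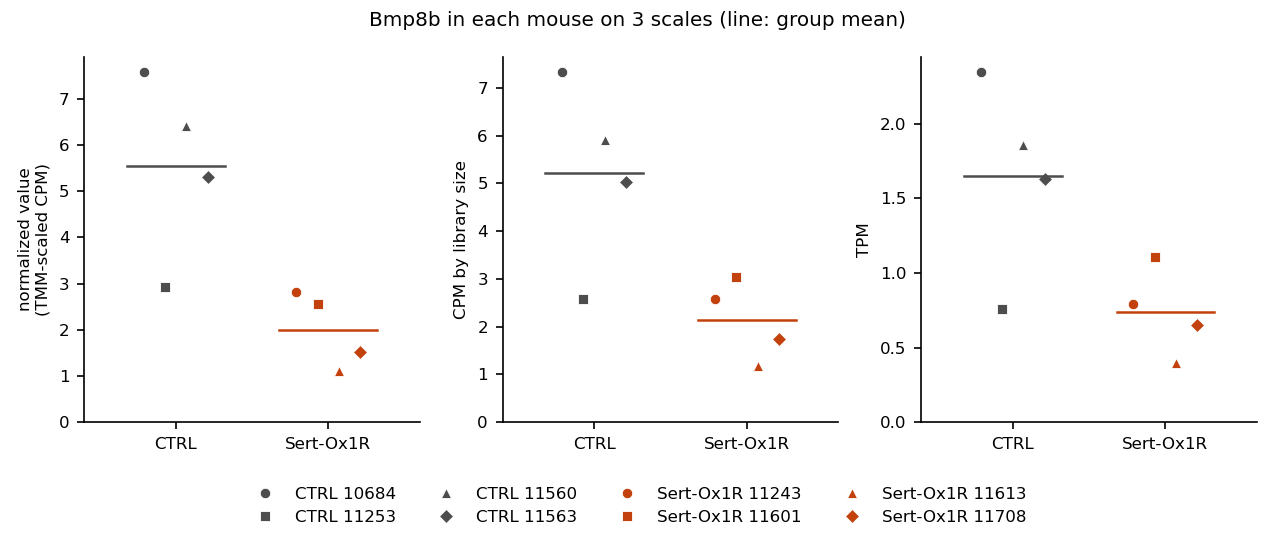
Bmp8b in each mouse on 3 scales, from left to right the normalized value (CPM after TMM scaling), CPM of the whole library, and TPM, with a symbol for each control or Ox1RΔSERT mouse and a line at each group's mean. On the first scale the groups are apart by 2.92 against 2.82, and on the other scales control mouse 11253 lies below Ox1RΔSERT mice 11243 and 11601.

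Markers of brown adipocytes were compared beside Bmp8b. Of the 6 markers, 0 passed edgeR's adjusted threshold or that of DESeq2, 4 (Ucp1, Cox7a1, Dio2 and Zic1) were lower in Ox1RΔSERT mice at an unadjusted p under 0.05, and the median log2 fold change was -0.47. Without mice 11601 and 11708 the median was -0.23 and 0 passed that threshold. In that fit, with fewer mice, 424 of 14856 genes passed it, against 2201 of 14489 with all 8 mice. On log2(TPM + 1) the median of the markers was -0.17, or -0.40 relative to the shift of all genes. The correlation of log2 TPM between Bmp8b and the sum of these markers was 0.31 over the 8 mice. With the sum of the 6 endothelial markers it was -0.82, and -0.96 over the 6 mice without 11601 and 11708. The fibroblast sum gave -0.42 over the 8 mice and -0.96 over the 6, and the leukocyte sum -0.35 and -0.68. These correlations include any difference between the groups. The endothelial sum of TPM was 50.8, 71.5, 59.3 and 62.8 in control mice and 73.3, 89.6, 104 and 129 in Ox1RΔSERT mice, without overlap. Its most abundant gene was Cldn5, which was also the 1 gene of the 6 endothelial markers that was higher at an unadjusted p under 0.05, and the median log2 fold change of the 6 was 0.06. On log2(TPM + 1) the median of these 6 markers was 0.38, or 0.15 relative to the shift of all genes. Their part in the Bmp8b result was not tested. Part of the reads of Bmp8b could come from elsewhere. Of its 31-base words, 7.02% are shared with its paralog Bmp8a, which had 1 to 51 counts per mouse. On the opposite strand, exons of Bmp8b overlap Gm17244 by 339 bases and Ppie by 133. The libraries were stranded, so that reads of either strand can be told apart, and whether any come from these genes was not tested. Gm17244 had 0 to 7 counts per mouse, and Ppie had 263 to 484, more than Bmp8b in 8 of 8 mice.

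Promoters are shown for Bmp8b, which DESeq2 but not edgeR called with all 8 mice, and for Adipoq, Nrg4 and Nampt. Adipoq, Nrg4 and Nampt were correlated with each other over the 8 mice (0.62 to 0.80). The promoters are given as the 250 bases before each start, 5′ to 3′ on the gene's strand. They are from RefSeq on GRCm38.p6, where all 10 genes were matched, with 12 promoters since Vegfa and Rbp4 have 2 each. Capitals mark matches to AGGTCA (on the other strand TGACCT), the core that nuclear receptors such as PPARγ read, to ACGTG (on the other strand CACGT), the core of hypoxia response elements, and to CCAAT (on the other strand ATTGG), known as the CCAAT box. Of all 32851 promoters of this length, 14.0% hold AGGTCA, 16.6% ACGTG and 33.8% CCAAT, on either strand, and no base in the printed promoters belongs to matches of 2 motifs. The positions are chr4:123104911-123105160 on the + strand for Bmp8b, chr16:23146286-23146535 on the + strand for Adipoq, chr9:55283626-55283875 on the - strand for Nrg4 and chr12:32820085-32820334 on the + strand for Nampt. Those of Nrg4 and Nampt lie inside the genes' spans in the GENCODE annotation (55220222 to 55326844 and 32819545 to 32853349). The bases before the outermost annotated start of these genes were not searched.
Bmp8b: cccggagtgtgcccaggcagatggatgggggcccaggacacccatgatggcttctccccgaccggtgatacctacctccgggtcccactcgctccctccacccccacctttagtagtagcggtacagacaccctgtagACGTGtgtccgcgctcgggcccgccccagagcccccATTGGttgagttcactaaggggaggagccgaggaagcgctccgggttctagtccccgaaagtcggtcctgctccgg
Adipoq: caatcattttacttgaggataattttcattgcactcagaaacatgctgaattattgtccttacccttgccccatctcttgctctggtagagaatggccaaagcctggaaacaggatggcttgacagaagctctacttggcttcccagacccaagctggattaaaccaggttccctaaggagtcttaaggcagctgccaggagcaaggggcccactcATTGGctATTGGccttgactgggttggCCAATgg
Nrg4: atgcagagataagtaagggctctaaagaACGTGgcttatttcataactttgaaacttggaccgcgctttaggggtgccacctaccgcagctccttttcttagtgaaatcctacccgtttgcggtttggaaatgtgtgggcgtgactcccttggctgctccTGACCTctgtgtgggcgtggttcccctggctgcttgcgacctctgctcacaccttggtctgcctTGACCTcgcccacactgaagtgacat
Nampt: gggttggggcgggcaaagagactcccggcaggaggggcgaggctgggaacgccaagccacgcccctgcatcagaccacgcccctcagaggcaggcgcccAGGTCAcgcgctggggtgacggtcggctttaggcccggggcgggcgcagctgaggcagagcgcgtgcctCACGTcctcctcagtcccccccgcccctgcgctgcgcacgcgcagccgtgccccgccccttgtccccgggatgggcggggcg
Bmp8b holds 1 ACGTG and 1 CCAAT, and Adipoq holds 3 CCAAT and neither of the other motifs. Nrg4 holds 1 ACGTG and 2 AGGTCA, and Nampt 1 of each of these. A match is a description of letters, not of a site in use, and Adipoq, Nrg4 and Nampt hold no motif in common among those searched.

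Nrg4 (ENSMUSG00000032311, chromosome 9, 55220222 to 55326844) encodes neuregulin 4, a ligand of ErbB receptors that brown adipocytes release. Its normalized values were 72.5, 69.2, 71.2 and 59.4 in the controls and 53.3, 39.4, 88.6 and 53.6 in Ox1RΔSERT mice. Of the Ox1RΔSERT mice, 11243, 11601 and 11708 lay below all control mice and 11613 lay above them all, so the groups overlapped and the spread was wider in Ox1RΔSERT mice. The means were 68.1 ± 5.95 and 58.7 ± 21 (SD, n = 4 each), for a log2 fold change of -0.21 (SE 0.22), which is within the spread between mice. The exact permutation p was 0.429, and the adjusted p was 0.644 in edgeR and 0.701 in DESeq2. Nrg4 depended on mouse 11613: without it the log2 fold change was -0.50 in DESeq2, with an adjusted p of 0.0411, in a range from 0.0411 to 1 over all settings. Without that mouse DESeq2 called 936 of all genes, against 265 with all mice. The sign turned on the TPM scale (0.07 on log2(TPM + 1), or -0.16 relative to the shift of all genes) and without mice 11601 and 11708 (0.06). Exons of Nrg4 overlap 368 bases of Fbxo22 on the opposite strand. The libraries were stranded, so that reads of either strand can be told apart, and whether any counts of Nrg4 belong to Fbxo22 was not tested.

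Metrnl (ENSMUSG00000039208, chromosome 11, 121701544 to 121716306) encodes meteorin-like, a factor that fat and muscle release and that is known to act through immune cells of fat. Normalized values of 6.59, 8.62, 9.94 and 10 in control mice stood against 8.1, 20.6, 9.5 and 16.7 in Ox1RΔSERT mice. Mice 11601 and 11708 lay above all control mice, and the other 2 Ox1RΔSERT mice lay among them. The log2 fold change was 0.64 (SE 0.30), with an exact permutation p of 0.257 and adjusted p-values of 0.345 in edgeR and 0.267 in DESeq2. Without mouse 11243 DESeq2 gave 0.81 and an adjusted p of 0.0462, in a range from 0.0462 to 1 over all settings, while without mouse 11601 the log2 fold change was 0.38 and without both 11601 and 11708 it was 0.01. DESeq2 called 1516 of all genes without mouse 11243, against 265 with all mice. Mice 11601 and 11708 held the highest sums of leukocyte and fibroblast markers. Of the 10 leukocyte markers tested, 9 were higher in Ox1RΔSERT mice at an unadjusted p under 0.05, as were 6 of the 6 fibroblast markers, with 0 past the adjusted threshold of edgeR. The median log2 fold changes of 1.61 and 1.51 went to 0.27 and 0.49 without mice 11601 and 11708, with 0 leukocyte markers and 1 fibroblast marker then past the unadjusted threshold. In that fit, with fewer mice, 424 of 14856 genes passed it, against 2201 of 14489 with all 8 mice. DESeq2 called 4 of the leukocyte markers (Ptprc, Itgam, Mrc1 and Trem2) and 1 of the fibroblast markers (Pdgfra). Over the 8 mice, the correlation of log2 TPM was 0.94 between Metrnl and the fibroblast sum and 0.89 with the leukocyte sum, but without mice 11601 and 11708 these were 0.43 and -0.26, so both relations rested on these 2 mice. The part of such cells in the Metrnl values was not tested.

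Vegfa (ENSMUSG00000023951, chromosome 17, 46016993 to 46032369), the main growth factor for blood vessels, is made by brown adipocytes as well as other cells. It had normalized values of 287, 317, 419 and 488 in the controls and 340, 242, 429 and 396 in Ox1RΔSERT mice. Mouse 11601 was the lowest of all and control mouse 11563 the highest, and the groups overlapped widely. The log2 fold change of -0.10 (SE 0.22) was within the spread between mice, with adjusted p-values of 0.841 in edgeR and 0.864 in DESeq2. Its sign flipped by library size alone (0.11), on log2(TPM + 1) and log2(TPM + 0.1) (0.23 each), without mouse 11601 (0.04), without control mouse 11563 (0.03) and without both 11601 and 11708 (0.03). Relative to the shift of all genes under these scalings it was between -0.11 and 0.00.

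**Figure D3:**
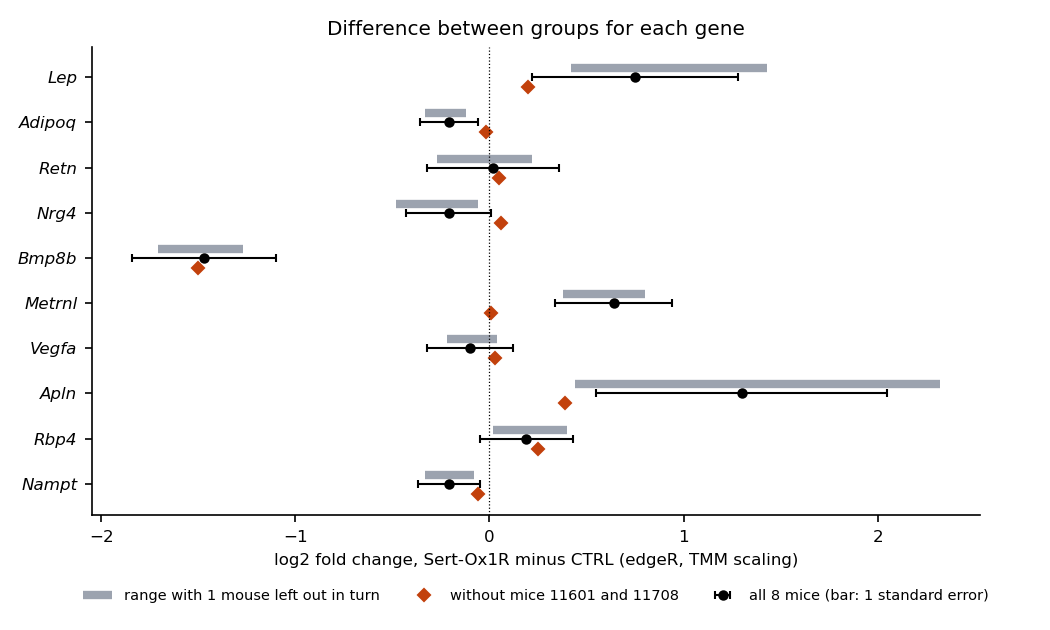
Log2 fold change, Ox1RΔSERT over control, of the 10 genes in edgeR, with a point and standard error bar for all 8 mice, a grey band for the range with 1 mouse left out in turn and a diamond without mice 11601 and 11708. Bmp8b is at -1.47 and at -1.50 without these mice, while Metrnl goes from 0.64 to 0.01, Apln from 1.30 to 0.39 and Lep from 0.75 to 0.20, and Nrg4, at -0.21, turns to 0.06.

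Among the classic adipokines, Lep (ENSMUSG00000059201, chromosome 6, 29060220 to 29073877) encodes leptin, the satiety hormone, which white fat makes far more than active brown fat. Normalized values were 114, 31.7, 23 and 45.6 in the controls and 82.6, 92.7, 40.4 and 145 in Ox1RΔSERT mice. Control mouse 10684 lay above all Ox1RΔSERT mice but 11708, so the groups overlapped, while 3 of the 4 Ox1RΔSERT mice lay above the other 3 control mice. The means were 53.6 ± 41.5 and 90.1 ± 42.8 (SD, n = 4 each), for a log2 fold change of 0.75 (SE 0.53), with an exact permutation p of 0.314 and adjusted p-values of 0.501 in edgeR and 0.581 in DESeq2. Leptin rested on single mice: without control mouse 10684 DESeq2 gave 1.41 and an adjusted p of 0.0156, in a range from 0.0156 to 1 over all settings, and without mouse 11708 the log2 fold change was 0.42. DESeq2 called 373 of all genes without mouse 10684, against 265 with all mice. Over the 8 mice, the correlation of log2 TPM between Lep and the sum of brown adipocyte markers was -0.75, and with the leukocyte sum it was 0.73, against -0.35 and 0.32 without mice 11601 and 11708. The part of either in the Lep values was not tested.

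Adipoq (ENSMUSG00000022878, chromosome 16, 23146536 to 23158028) encodes adiponectin, the insulin-sensitising hormone of fat cells. It stood at normalized values of 557, 537, 502 and 449 in the controls and 459, 410, 546 and 357 in Ox1RΔSERT mice. Mice 11601 and 11708 lay below all control mice and the other 2 lay among them. The log2 fold change was -0.21 (SE 0.15), with an exact permutation p of 0.229 and adjusted p-values of 0.496 in edgeR and 0.546 in DESeq2. It was -0.12 without mouse 11708, -0.33 without 11613 and -0.02 without both 11601 and 11708. By library size alone it was 0.00 and on log2(TPM + 1) 0.11, or -0.22 and -0.13 relative to the shift of all genes. Adipoq followed the sum of adipocyte markers, with a correlation of log2 TPM of 0.94 over the 8 mice and also without mice 11601 and 11708.

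Retn (ENSMUSG00000012705, chromosome 8, 3655770 to 3660110) encodes resistin, a product of fat cells in mice. Its normalized values were 12.5, 12.2, 8.17 and 10 in the controls and 5.55, 7.08, 16.6 and 14.2 in Ox1RΔSERT mice. The Ox1RΔSERT mice lay on both sides of the controls, with 11613 and 11708 above and 11243 and 11601 below them all, and the means were 10.7 ± 2.03 and 10.9 ± 5.37 (SD, n = 4 each). The log2 fold change of 0.02 (SE 0.34) took either sign when 1 mouse was left out, from -0.27 without 11613 to 0.22 without 11243.

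Rbp4 (ENSMUSG00000024990, chromosome 19, 38116629 to 38125281) encodes the carrier of retinol in blood, which liver and fat secrete. It had normalized values of 37.1, 33.3, 56.9 and 72 in the controls and 60, 44.1, 58 and 64.5 in Ox1RΔSERT mice. All 4 Ox1RΔSERT mice lay within the range of the controls, and the log2 fold change was 0.19 (SE 0.24), with an adjusted p of 0.724 in edgeR and 0.786 in DESeq2. Leaving out control mouse 11253 gave 0.02, and leaving out control mouse 11563 gave 0.40. On the TPM scale the values were 35.9, 28.6, 53.6 and 70.1 against 55.8, 59.9, 65.5 and 86.3. There mouse 11708 lay above all controls, and log2(TPM + 1) gave 0.56, or 0.33 relative to the shift of all genes. The same mouse had the highest sum of the 4 liver markers, at TPM of 12.9, 13.4, 1.34 and 1.09 in the controls and 8.71, 33.6, 3.63 and 471 in Ox1RΔSERT mice, while control mouse 11563, with the next highest Rbp4, had the lowest. Of the 4 liver markers, 3 were higher at an unadjusted p under 0.05, against 10.2% of all genes. Their median log2 fold change of 3.66 went to 0.75 without mouse 11708 and to -0.15 without both 11601 and 11708. The part of the liver markers in the Rbp4 values was not tested.

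Apln (ENSMUSG00000037010, chromosome X, 48025146 to 48034853) encodes apelin, a peptide of fat cells and of growing blood vessels. Normalized values were 0.915, 1.11, 1.47 and 6.1 in the controls and 3.73, 13.9, 2.58 and 3.5 in Ox1RΔSERT mice, from 35 to 705 counts per mouse. Control mouse 11563 and Ox1RΔSERT mouse 11601 stood far above their groups, and apart from 11563 all control mice lay below all Ox1RΔSERT mice. The means were 2.4 ± 2.48 and 5.93 ± 5.34 (SD, n = 4 each), for a log2 fold change of 1.30 (SE 0.75), with an exact permutation p of 0.314 and adjusted p-values of 0.414 in edgeR and 0.31 in DESeq2. These mice moved the value in opposite directions: without 11563 DESeq2 gave 2.33 and an adjusted p of 0.0294, in a range from 0.0294 to 1 over all settings, and without 11601 the log2 fold change was 0.44. DESeq2 called 49 of all genes without mouse 11563, against 265 with all mice. Over the 8 mice, the correlation of log2 TPM between Apln and the fibroblast sum was 0.77 and with the leukocyte sum 0.67, against 0.21 and -0.20 without mice 11601 and 11708, and the part of such cells in the Apln values was not tested.

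Nampt (ENSMUSG00000020572, chromosome 12, 32819545 to 32853349) encodes the enzyme that salvages nicotinamide for NAD, which fat also releases as visfatin. It stood at normalized values of 531, 423, 408 and 326 in the controls and 408, 321, 399 and 331 in Ox1RΔSERT mice. Mouse 11601 lay just below the lowest control mouse and the other 3 within the controls' range, with a log2 fold change of -0.21 (SE 0.16) and adjusted p-values of 0.526 in edgeR and 0.575 in DESeq2. Leaving out control mouse 10684 gave -0.08, leaving out control mouse 11563 gave -0.33, and without both 11601 and 11708 it was -0.06. By TPM the means were 87.5 and 95.6, and on log2(TPM + 1) the log2 fold change was 0.14, or -0.09 relative to the shift of all genes.

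Some of the 10 genes varied together from mouse to mouse. Correlations of log2 normalized values are over the same 8 libraries, on 1 scaling, and include any difference between the groups. Adipoq went with Nampt (r = 0.80) and with Nrg4 (0.78), which was 0.73 and 0.83 without mice 11601 and 11708. Nrg4 went with Nampt (0.62), but less so without these mice (0.31). Retn also went with Nrg4 (0.62, or 0.85 without them), and with Adipoq it was at 0.22, or 0.74 without them. Metrnl went with Apln (0.75, or 0.53 without them), and both went against Nampt (-0.83 for Metrnl and -0.85 for Apln, or -0.86 and -0.84). Adipoq, Nrg4 and Nampt were low in mouse 11601, and Metrnl and Apln were high in it. Vegfa and Rbp4 went together (0.76), also when each mouse was taken relative to its group's mean (0.87), with control mice 10684 and 11253 low in both. Bmp8b had no such partner among the 10, with correlations from -0.45 (Metrnl) to 0.42 (Nampt). Relative to its group's mean it went against Retn (-0.73) and Nrg4 (-0.53). Over the 8 mice the genes most like it were Haus2 (0.98) and Zfp944 (0.97). For the others, genes most like them were Zbtb37 (1.00) and Tmem131l (0.97) for Lep, Atox1 (0.97) for Adipoq, Gm10419 (0.96) and Nfrkb (0.94) for Retn, and Dpyd (0.98) for Nrg4. Metrnl was most like B4galt5 and Sdf2l1 (0.99 each), Vegfa like Usp19 (0.98) and Ciart (0.95), and Apln like Btla and Pcolce2 (0.96 each). Rbp4 was most like Hk1 and Scrib (0.96 each), and Nampt like Hibch (0.99) and Rmnd1 (0.98). The highest of 14489 correlations over 8 mice is high for any gene, and these are descriptions.

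**Figure D4:**
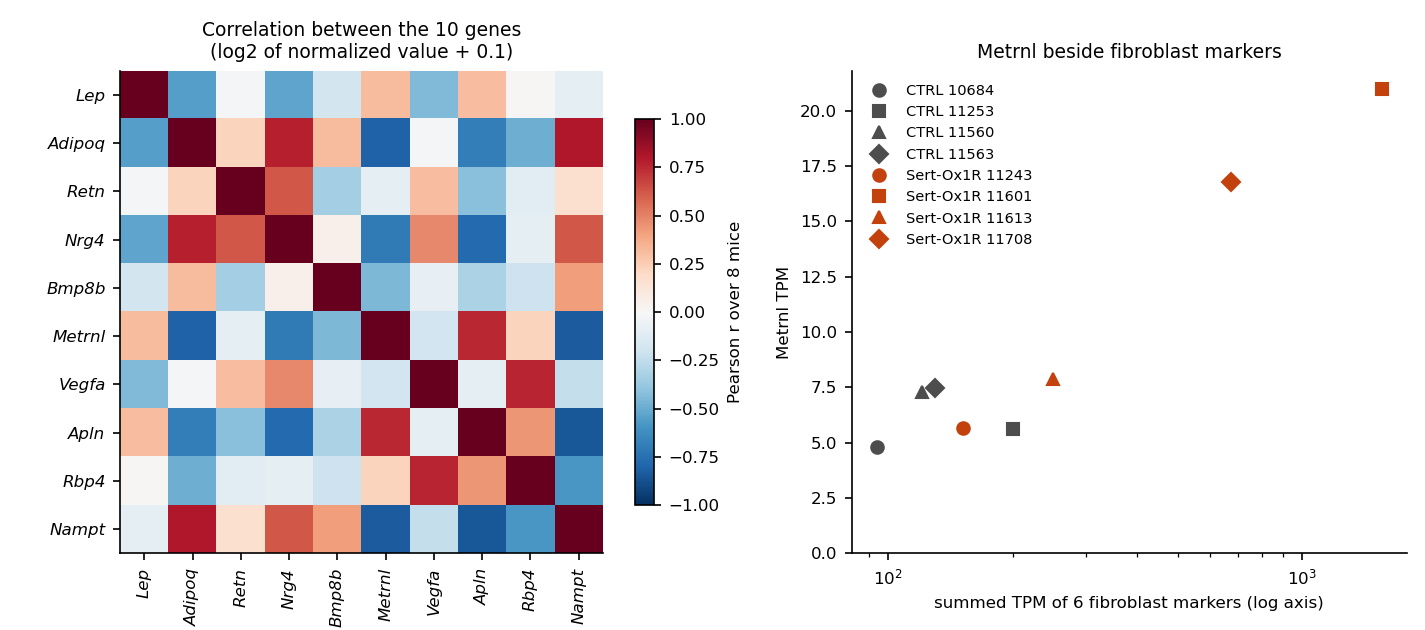
Left, Pearson correlation over the 8 mice between log2 normalized values of the 10 genes, from blue (-1) to red (1), and right, Metrnl TPM against the summed TPM of 6 fibroblast markers (log axis), with a point for each mouse. Adipoq and Nampt (0.80) and Metrnl and Apln (0.75) are high together, and on the right mice 11601 and 11708 lie far from the other 6, with marker sums of 1554 and 674.

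Genes around the 10 were read as lists, each beside the 10.2% of all genes that were higher and the 4.96% that were lower at an unadjusted p under 0.05 in edgeR, which called 0 genes of any list at the adjusted threshold. DESeq2 calls given below with 1 mouse left out stand beside 17 to 1516 calls over all genes, the most without mouse 11243 or 11613. Of 18 tested receptors and binding partners of the 10 proteins (21 listed), 2 (Nrp2 and Ttr) were higher and 0 lower. Ttr, a carrier made in liver, was at a normalized value of 36.8 in mouse 11708, which had the liver marker sum of 471, and at 0.113 to 3.49 in the other 7, and the part of liver RNA in it was not tested. The median log2 fold change of the list was -0.05, which turned to 0.16 by library size alone and 0.19 on log2(TPM + 1). Relative to the shift of all genes these were -0.05 and -0.04. With 1 mouse left out in turn, the median took either sign, from -0.11 to 0.07. The adiponectin receptors Adipor2 and Adipor1, the most abundant of the list at mean TPM of 102 and 35.8, had log2 fold changes of -0.16 and -0.14. Of 37 tested other secreted factors of fat (42 listed), 13 were higher and 1 (Angptl8) lower, with a median of 0.52. It was 0.28 without mouse 11708 and 0.01 without both 11601 and 11708. The list's higher median was thus not there without these 2 mice. Its most abundant genes were Hp (haptoglobin, mean TPM 1133) and Cfd (adipsin, 351), with log2 fold changes of -0.09 and 0.07. Cfd rested on mouse 11613: its normalized values were 144, 175, 817 and 171 in Ox1RΔSERT mice against 217 to 472 in the controls, so that 3 of the 4 lay below all controls, and over all settings its log2 fold change went from -0.95 to 0.63. Without mouse 11613 DESeq2 called it lower (adjusted p 0.0223, in a range from 0.0223 to 1).

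In that list, the groups did not overlap for 2 of the 37 tested genes, Angptl4 and Adm, and DESeq2 called 2, Angptl4 and Il1b. Of all genes, 2.69% were higher without overlap, and DESeq2 called 1.75% of those it gave an adjusted p. Angptl4, an inhibitor of lipoprotein lipase, had normalized values of 83.1, 98.6, 53 and 62.9 in the controls and 123, 170, 150 and 162 in Ox1RΔSERT mice. All 4 Ox1RΔSERT mice lay above all control mice, with a log2 fold change of 1.02 (SE 0.20), and the adjusted p was 0.316 in edgeR and 0.00188 in DESeq2, in a range from 2.42e-05 to 0.996 over all settings. DESeq2 called it with each mouse left out but not without both 11601 and 11708, where its log2 fold change was 0.88. Adm, the vessel-relaxing peptide adrenomedullin, stood at 2.41, 2.82, 2.39 and 4.65 against 4.72, 5.84, 4.94 and 8.35, a log2 fold change of 0.96 (SE 0.28), without overlap but with control mouse 11563 close to mouse 11243, and DESeq2 did not call it (adjusted p 0.0554, in a range from 0.011 to 1). Il1b, an inflammatory cytokine, was high in mice 11601, 11613 and 11708, at 4.52, 2.63 and 10.5, against 0.42 to 0.915 in the other 5, with a log2 fold change of 2.79 (SE 0.69) that was 1.39 without mice 11601 and 11708. DESeq2 gave it an adjusted p of 0.00366, in a range from 1.07e-06 to 1, and did not call it without mouse 11708.

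**Figure D5:**
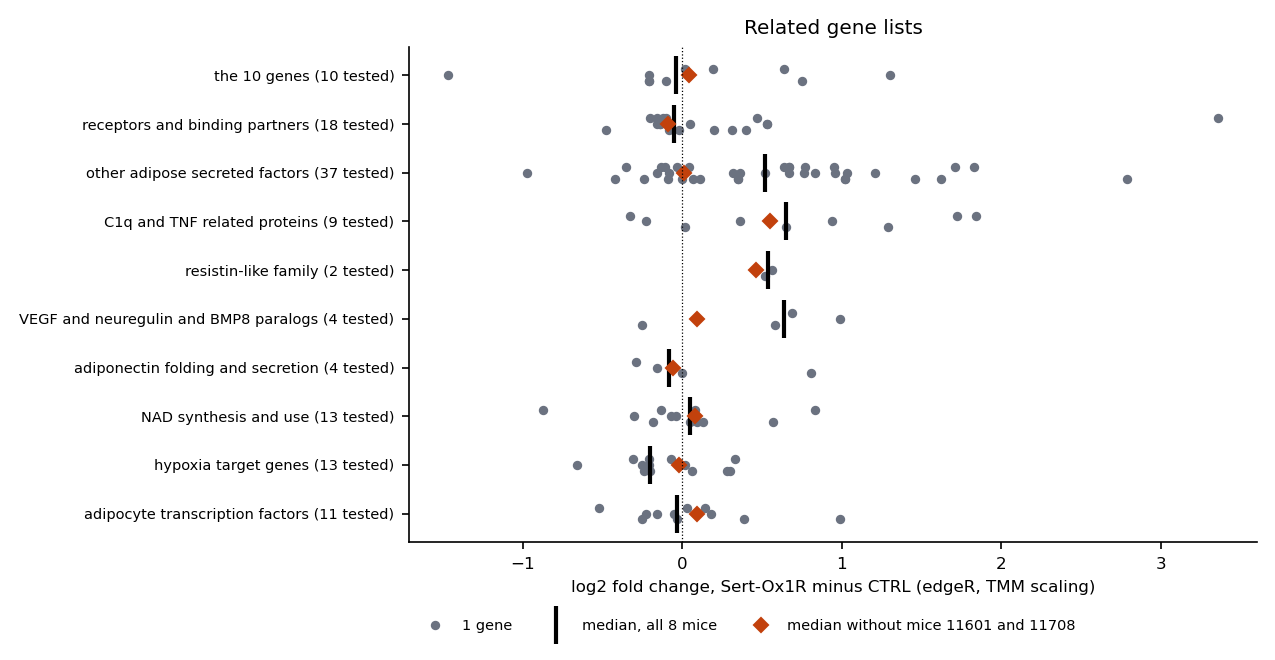
Log2 fold change in edgeR, Ox1RΔSERT over control, of the 10 genes and of each related list, with a grey point for each tested gene, a bar at the list's median over all 8 mice and a diamond at its median without mice 11601 and 11708. The median of the 10 genes is at -0.04 and 0.04, and that of the other secreted factors goes from 0.52 to 0.01.

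Paralogs of some of the 10 were read as lists, with no test against the genes they are related to. Those listed for Nrg4 and Bmp8b did not have enough counts to be tested. Of the 9 C1q and TNF related proteins, paralogs of adiponectin, 3 (C1qtnf2, C1qtnf6 and C1qtnf7) were higher and 0 lower at an unadjusted p under 0.05, with a median of 0.65, or 0.27 without mouse 11601 and 0.55 without both 11601 and 11708. The most abundant were C1qtnf12 (mean TPM 42.4) and C1qtnf9 (12.5), with log2 fold changes of -0.33 and -0.23. DESeq2 called C1qtnf9 lower without mouse 11243 (adjusted p 0.0189, in a range from 0.0189 to 1). C1qtnf6 had normalized values of 2.04, 4.22, 1.99 and 2.88 in the controls and 2.88, 19.3, 5.19 and 9.28 in Ox1RΔSERT mice. Of the latter, 3 lay above all control mice, with a log2 fold change of 1.72 (SE 0.55) that was 0.55 without mice 11601 and 11708. DESeq2 called it (adjusted p 0.0428, in a range from 0.000645 to 1), though not without control mouse 10684, 11560 or 11563 or Ox1RΔSERT mouse 11601 or 11708. Of the resistin-like family 2 of 3 were tested, Retnla (0.52) and Retnlg (0.56), and 0 passed, with a median of 0.54, or 0.34 without control mouse 11563 and 0.91 without control mouse 10684. Of 8 paralogs of Vegfa, Nrg4 and Bmp8b 4 were tested, of which 1 (Vegfc) was higher, with a median of 0.64, or 0.40 without mouse 11601 and 0.09 without both 11601 and 11708. Vegfb, the most abundant of them, was at -0.25 and Pgf at 0.58. Pgf rested on control mouse 11563, at a normalized value of 10.7 against 0.811 to 1.96 in the other controls and 3.01 to 7.16 in Ox1RΔSERT mice. Without that mouse DESeq2 called it higher (adjusted p 0.00206, in a range from 0.00206 to 0.996), and its log2 fold change over all settings went from 0.25 to 2.06.

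Partner enzymes and regulators of the 10 were read the same way. Of 4 tested genes for the folding and secretion of adiponectin (listed with a further symbol, Ero1a, which is another name of the tested Ero1l), 1 was higher, the disulfide isomerase P4hb (0.81, or 0.21 without mice 11601 and 11708, with a DESeq2 call without mouse 11243 or 11613 and adjusted p-values from 0.003 to 1), while Gstk1 was at -0.29, and the median was -0.08, which turned to 0.14 by library size alone, or -0.07 relative to the shift of all genes. Of 13 tested genes of NAD synthesis and use (15 listed), 0 were higher and 2 lower, with a median of 0.05. That median went from -0.03 to 0.05 with 1 mouse left out in turn. By library size alone it was 0.26, or 0.04 relative to the shift of all genes. The lower genes were Nadk2 and Nnmt, which methylates nicotinamide and so takes away the substrate of Nampt. Nnmt had normalized values of 53.8, 78.5, 71.5 and 58.2 in the controls and 30.1, 39.6, 46.8 and 26.7 in Ox1RΔSERT mice. All 4 Ox1RΔSERT mice lay below all control mice, for a log2 fold change of -0.87 (SE 0.20), with an adjusted p of 0.316 in edgeR and 0.0155 in DESeq2, in a range from 0.000299 to 0.996. DESeq2 did not call it without control mouse 11253, 11560 or 11563 or Ox1RΔSERT mouse 11601 or 11708, and without both of the last its log2 fold change was -0.76. Nadk, the most abundant of that list, was at -0.18. Of 13 tested hypoxia target genes (14 listed), among which Vegfa and Adm would also count, 0 were higher and 1 (Pfkfb3) lower, with a median of -0.20, which was -0.01 without mouse 11601 and 0.25 on log2(TPM + 1), or 0.02 relative to the shift of all genes. Ldha and Bnip3, the most abundant, were at -0.07 and -0.24. Of 11 adipocyte transcription factors, 1 was higher and 0 lower, with a median of -0.03, which turned to 0.17 by library size alone, or -0.05 relative to the shift of all genes, and to 0.09 without mice 11601 and 11708. The higher gene was Cebpd, at 11.5, 10.3, 10.2 and 8.39 in control mice and 17.9, 24.8, 21.3 and 16 in Ox1RΔSERT mice, without overlap, for a log2 fold change of 0.99 (SE 0.16). The adjusted p was 0.316 in edgeR and 0.00072 in DESeq2, in a range from 2.7e-05 to 0.996, and DESeq2 called it with each mouse left out and without both 11601 and 11708. Cebpb and Pparg, the most abundant, were at 0.14 and -0.03. Cebpb depended on single mice, with 203 in mouse 11613 against 51.4 to 98.1 in the other Ox1RΔSERT mice, and its log2 fold change went from -0.36 to 0.60 over all settings.

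Other cell types were read by their markers once. Mural cell markers, led by Rgs5, summed to TPM of 49.7 to 72.8 in control mice and 72.9 to 88.2 in Ox1RΔSERT mice. In edgeR the median log2 fold change of these 4 genes was 0.04, Rgs5 was at -0.15, and 0 passed the unadjusted threshold. Markers of Schwann cells, led by Mbp, summed to 5.81 to 14.7 over all mice and those of mast cells, led by Mcpt4, to 4.49 to 22.3. Skeletal muscle markers were high in control mouse 11253 (527) as well as in mouse 11708 and lay between 27.7 and 135 in the other 6. The mesothelial markers Msln and Upk3b were at 0 in 6 of the 8 mice and at or under a summed TPM of 0.0459 in the others. No listed marker was at 0 in all mice.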

How the data were processed

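BAT RNA of 8 mice was measured by stranded poly-A RNA sequencing, 1 library per mouse. The authors deposited an estimated count per gene and mouse, made with Salmon 0.14.1 in nf-core/rnaseq on GRCm38, which is not normalized. The authors also deposited TPM, which they normalized for transcript length and library size. The annotation release is not given in the sources used here, and symbols, positions and exons were taken from GENCODE mouse annotation on GRCm38. The authors' own test was DESeq2 1.26.0.

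Estimated counts were rounded to whole numbers. Genes were compared with all 8 mice and no covariate in R 4.3.3 with edgeR 4.0.16 (filterByExpr, TMM scaling, two-sided quasi-likelihood test), and p was adjusted by Benjamini-Hochberg over all 14489 genes tested, with a threshold of 0.05. Each log2 fold change was given an SE from its F statistic. Exact two-sided permutation tests used normalized values and all 70 assignments. Correlations used log2 of the normalized value or TPM plus 0.1, and were given no p. Tables and figures were made with Python 3.11.15, numpy 2.4.6 and pandas 2.3.3. Total estimated counts were 35852667 to 50063257 per mouse.

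The text names the 10 genes, Hcrtr1 and Slc6a4 as label checks, and for each of the 10 the 2 genes most correlated with it, some of which are not reported here. It also names the 2 most abundant genes of each related list, up to 4 more per list without overlap or called by DESeq2, the most abundant gene of each marker list and markers at 0. Genes with overlapping exons or shared sequence were named for that, and further genes behind a small count were named after their values were seen. The 10 genes and all lists were chosen with earlier results of these data known. The related lists were receptors and binding partners, other secreted factors of fat, C1q and TNF related proteins, the resistin-like family, paralogs of Vegfa, Nrg4 and Bmp8b, adiponectin folding and secretion, NAD synthesis and use, hypoxia target genes and adipocyte transcription factors. Markers were listed for adipocytes, brown adipocytes, leukocytes, endothelial cells, fibroblasts, mural cells, skeletal muscle, Schwann cells, mast cells, mesothelium and liver.

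Alternatives were DESeq2 1.42.0, RLE, upper-quartile and library size scaling, TMM without mitochondrially encoded genes, no filter beyond 1 count or at least 10 counts in every mouse, limma 3.58.1 voom, edgeR's likelihood-ratio test, limma-trend on TPM (log2 after adding 1 or 0.1), a length offset, each mouse left out in turn, and both mice 11601 and 11708 left out. The scripts were tested on simulated data.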

Additional observations from a re-analysis of the deposited data

Results flagged for a closer look

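Each of the 10 genes was examined in each group for a mouse far from the other 3, by the gap between the highest or lowest mouse and its nearest neighbour as a share of the group's range. Of the 20 groups of 4 mice, 2 were past Dixon's 95% limit for groups of this size, both for Apln, and chance alone puts about 1 in 20 past it. In control mice the share was 0.893, from mouse 11563 at a normalized value of 6.1. In Ox1RΔSERT mice it was 0.898, from mouse 11601 at 13.9.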

How the results depend on the processing

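edgeR's quasi-likelihood test called 0 genes, and 0 of the 10, with every scaling, filter and left-out mouse tried, and so did limma voom and limma-trend. DESeq2 called 265 genes, 1 of the 10 among them, and edgeR's likelihood-ratio test called 24 genes, 0 of the 10 among them. The fits of DESeq2 with mice left out were chosen after seeing the data, as were list medians on TPM and correlations without mice 11601 and 11708. With 1 mouse left out in turn, DESeq2 called 0 to 2 of the 10 and 17 to 1516 of all genes. Without both mice 11601 and 11708 it called 0 of the 10 and 8 of all genes. Log2 fold changes of Lep, Bmp8b, Apln and Rbp4 kept their sign in every fit, and that of Metrnl did too except that without both mice it was gone (0.01 in edgeR and 0.00 in DESeq2). Others turned from below to above 0. By library size alone Adipoq was at 0.00 and Vegfa at 0.11. On log2(TPM + 1) Adipoq was at 0.11, Nrg4 at 0.07, Vegfa at 0.23 and Nampt at 0.14, and on log2(TPM + 0.1) Adipoq was at 0.11, Nrg4 at 0.07, Vegfa at 0.23 and Nampt at 0.14. These scalings also raised the median of all genes, by more than each of these values except Vegfa on log2(TPM + 1). Without both mice Nrg4 was at 0.06 and Vegfa at 0.03. Retn, near 0, was at -0.01 with upper-quartile scaling, 0.00 with no filter, -0.10 with voom and -0.01 with the length offset. With 1 mouse left out, Retn ranged from -0.27 to 0.22 and Vegfa from -0.22 to 0.04. The share of mitochondrially encoded genes, 40.0% to 46.8% of counts in control mice and 33.6% to 44.6% in Ox1RΔSERT mice, differed beside these scalings, and the cause of these changes was not tested. The smallest p that 4 mice against 4 allow in the exact permutation test is 0.0286. Bmp8b rested on as few as 49 counts in a mouse, and counting error limits it and Apln more than the other 8 genes.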
